A study of Mus musculus with 6 samples.

Results

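Matrix metalloproteases (Mmp), their tissue inhibitors (Timp), and the ADAM and ADAMTS proteases were taken from the count tables by symbol: every gene whose name is Mmp, Timp, Adamts or Adam followed by a digit. They numbered 79 of the 24422 genes listed, with 33 Adam, 19 Adamts, 23 Mmp and 4 Timp genes. Of these, 49 reached at least 10 counts in 3 or more of the 6 libraries and 48 entered the test of genotype, since Adamts20 passed the count rule but not the filter of the test. A further 18 had counts below the rule, and 12 had no count in any library (10 Adam and 2 Mmp genes).

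The study deleted the transferrin receptor *TfR1* (gene *Tfrc*) in the kidney and measured RNA in whole kidney at postnatal day 60 by poly-A RNA sequencing, with 3 libraries per genotype. Control mice were labelled wild type. The TfR1KO;KspCre mice, here called knockouts, carried floxed *TfR1* alleles and a Cre recombinase driven by the Ksp-cadherin promoter, which is active in tubule epithelium of the distal nephron and collecting duct, so that the remaining cells of the kidney kept the gene. All 6 mice were C57BL/6 and received an iron sufficient diet with 220 ppm iron.

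MMPs are zinc proteases that cut collagens, elastin, proteoglycans and laminins, and most are secreted as inactive precursors, while the membrane-type members stay at the cell surface. TIMPs bind the active site of these enzymes and block it. ADAM proteases mainly cut the outer part of membrane proteins from the cell surface, and ADAMTS proteases are secreted and cut procollagens and large proteoglycans. In the kidney, the balance between these enzymes and inhibitors is studied in the turnover of basement membranes and in the interstitial matrix of chronic injury.

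Total counts ranged from 11501053 to 21001341 per library. *Tfrc* itself had 2783, 2856 and 1032 counts in the controls and 4368, 1713 and 530 in the knockouts, with a log2 fold change of −0.11 ± 0.62 (SE, adjusted p = 0.911), so the whole-kidney level did not separate the genotypes and gives no check of the labels. Control 2 stood apart from the other 5 libraries by *Xist*, with 52 counts against 10458 to 23845, and by 4 Y-linked genes, with 518 to 1451 counts each against 0 to 4. That library is therefore unlike the rest in sex-linked genes, and the called genes are also given without it. Knockout 3, which had the lowest total, stood apart by ribosomal RNA, with 298385 counts of *Rn45s* against 98984 to 132514 in the other libraries, and the part of this in the results was not tested. In whole tissue, fewer cells of a type and less RNA per cell cannot be told apart.

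Among protease and inhibitor genes, all that passed the test were higher in the knockouts. Of the 48 genes tested, 17 rose and 0 fell by edgeR's quasi-likelihood test with an adjusted p under 0.05 over all 15171 genes tested, which is what called means here. Among the negative differences 2 had an unadjusted p under 0.05, limma-voom called 0 lower and DESeq2's Wald test called 2 lower. The 17 were 35.4% of the genes tested, against 17.2% of all genes called in either direction, 10.6% called higher and 6.64% called lower. None of the 17 stayed called when any 1 control was left out, and in those fits 0 of all genes tested were called. The log2 fold change was positive for 43 genes and negative for 5, with a median of 1.20 against 0.02 over all genes tested, and 30 of the 48 (62.5%) had an unadjusted p under 0.05, against 38.6% of all genes. Of the tested genes 44 reached 10 counts in every control, *Adam32*, *Mmp3* and *Timp1* in some controls, and *Mmp7* in no control, so that *Mmp7* was tested through its knockout counts alone. *Mmp3* and *Timp1* reached 10 counts in only 1 control and also met the count rule only with the knockouts. With 10 counts required in every library these 3 are not tested and 14 genes were called. In 27 genes (56.2%) every knockout lay above every control, against 23.8% of all genes. In 3 genes every knockout lay below every control, and in 18 the groups overlapped. Over all genes the groups did not overlap in either direction in 46.0%.

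By family, MMPs had 8 called of 13 tested (61.5%) and a median of 2.27 on the log2 scale, TIMPs 2 of 4 with 1.22, ADAMTSs 4 of 15 with 1.07 and ADAMs 3 of 16 with 0.48. Among the 44 genes with 10 counts in every control these were 6 of 11 with 1.68, 1 of 3 with 0.62, 4 of 15 with 1.07 and 3 of 15 with 0.52. The 17 called genes had log2 fold changes from 1.20 to 6.57 and adjusted p-values from 0.0271 to 0.0389, the smallest of any gene being 0.0271. Knockout 2 was the highest library in 14 of the 17 (82.4%), against 56.9% of the 1604 genes called higher over the whole table, and knockout 1 was the lowest knockout in 16 (94.1%), against 82.4%.

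**Figure D1:**
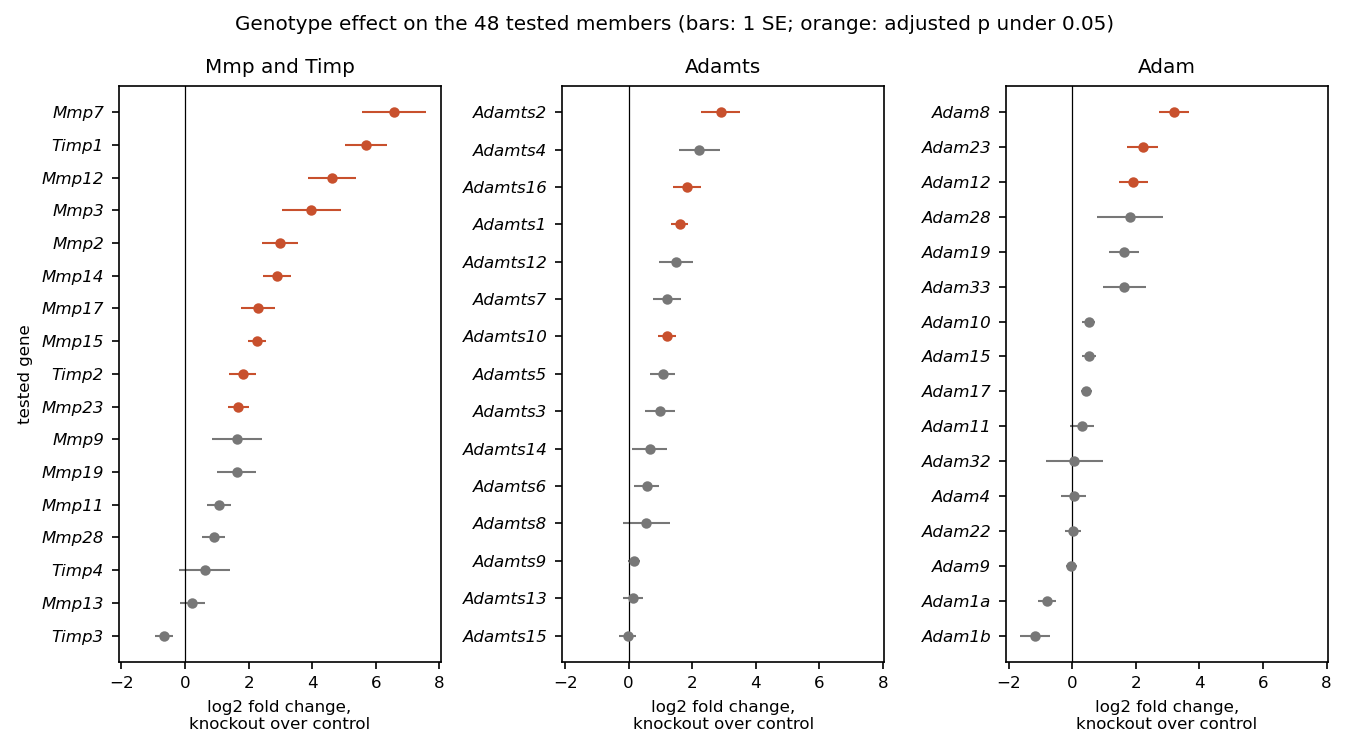
Log2 fold change of each of the 48 tested genes (horizontal axis, TfR1KO;KspCre over control, with its SE as a bar), grouped by family, with called genes in orange. The 8 called MMPs and 2 called TIMPs lie between 1.68 and 6.57, and no gene left of 0 was called.

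Of the 4 tissue inhibitors 2 rose. *Timp1*, the secreted inhibitor of most MMPs, was low in the controls at 0.547, 0.235 and 0.540 CPM (counts scaled to 1e6 per library, after TMM scaling) and stood at 8.88, 36.8 and 24.4 in the knockouts. Every knockout exceeded every control by far. It rose by 5.70 ± 0.66 on the log2 scale (51.8-fold, adjusted p = 0.0271), from 4 to 11 raw counts in the controls to 181 to 734 in the knockouts. *Timp2*, which also takes part in activating the precursor of *Mmp2* on the cell surface, had 132, 93.8 and 78.0 CPM in the controls and 173, 523 and 370 in the knockouts. It rose by 1.81 ± 0.42 (3.5-fold, adjusted p = 0.0365), and the groups did not overlap.

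*Timp3*, the matrix-bound inhibitor that also blocks ADAM17 and the aggrecanases, was by far the most abundant member in the controls. It had 1791, 2676 and 2591 CPM in controls and 1501, 1350 and 1636 in knockouts. All knockouts lay below all controls, but the log2 fold change of −0.65 ± 0.28 did not pass the test (adjusted p = 0.138). DESeq2's Wald test, an alternative, did call *Timp3* lower. Its exons overlap *Syn3* on the opposite strand, at 10.65 to 42.08 CPM, and the strand setting of the counting is not given in the sources used here. *Timp4* had 1.24, 0.882 and 0.720 CPM in controls and 0.294, 0.954 and 3.29 in knockouts. The groups overlapped and it was not called (0.62 ± 0.80, adjusted p = 0.596).

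**Figure D2:**
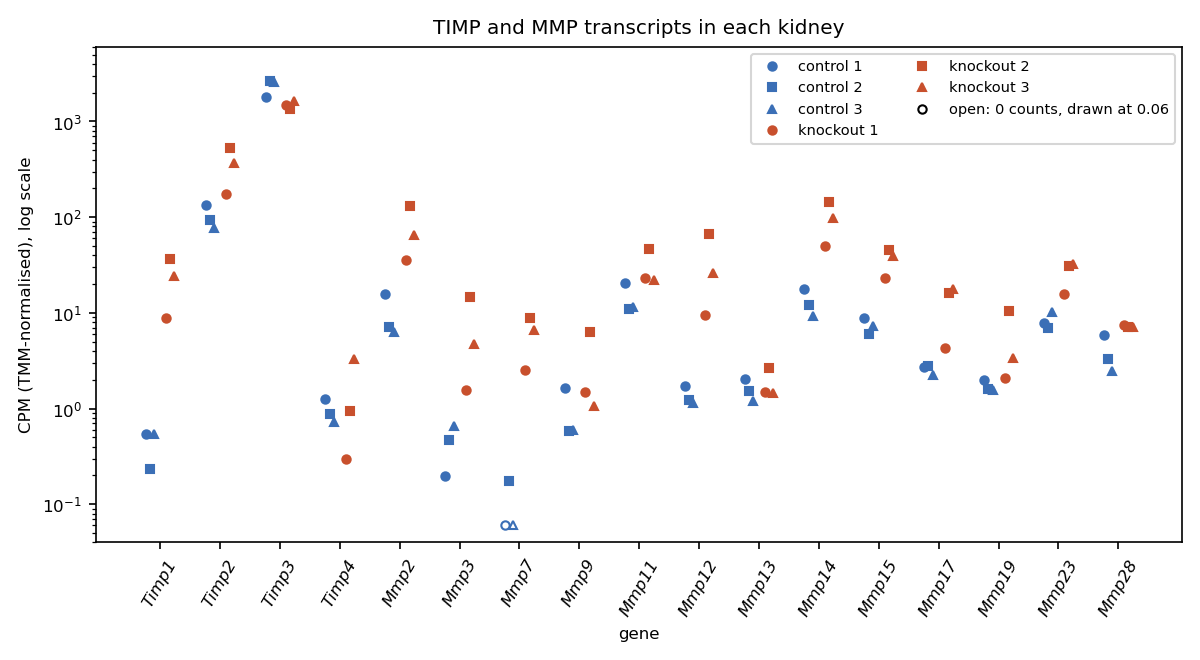
Normalized level in CPM on a log axis for the TIMP and MMP genes that were tested, each point 1 kidney, with controls in blue, TfR1KO;KspCre in orange, a shape for each replicate and open symbols for 0 counts. *Timp1*, *Mmp7* and *Mmp12* show the widest gap between groups, while *Timp3* lies above all others in both.

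Matrilysin and the metalloelastase had the 2 largest log2 fold changes among the MMP, ADAM and ADAMTS genes tested. *Mmp7*, matrilysin, a small protease made by epithelium, had 0, 3 and 0 counts in the controls and 51, 178 and 87 in the knockouts. The knockouts totalled 316 counts against 3, a ratio of 106 after scaling for library size, with a 95% counting interval of 36 to 518 that covers counting error only, and the fitted log2 fold change was 6.57 ± 1.01 (adjusted p = 0.0277). All 3 control counts came from control 2. Without that library the controls were at 0 and the knockouts were at least 72.6-fold higher, taking a floor of 3 counts over the group. *Mmp12*, the elastase of macrophages, had 1.74, 1.23 and 1.14 CPM in the controls and 9.52, 67.0 and 26.1 in the knockouts. It rose by 4.63 ± 0.75 (24.7-fold, adjusted p = 0.0277), or 3.68 without knockout 2.

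*Mmp3*, stromelysin 1, had 4, 8 and 11 counts in the controls and 32, 293 and 62 in the knockouts, or 0.199, 0.470 and 0.660 CPM against 1.57, 14.7 and 4.75. It rose by 3.98 ± 0.92 (15.8-fold, adjusted p = 0.0364), with knockout 2 far above the other two and a value of 2.82 without it. *Mmp11*, stromelysin 3, had 20.6, 11.1 and 11.5 CPM in controls and 23.1, 46.4 and 21.9 in knockouts. Its groups were apart, yet it missed the threshold (1.08 ± 0.38, adjusted p = 0.0862).

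Among the gelatinases, *Mmp2* rose and *Mmp9* was not called. *Mmp2*, gelatinase A, which is made largely by stromal cells, had 15.7, 7.17 and 6.30 CPM in the controls and 35.7, 131 and 65.1 in the knockouts. Its mean was 9.73 ± 5.21 (SD, n = 3) in controls and 77.4 ± 48.9 (SD, n = 3) in knockouts, a rise of 2.99 ± 0.57 (7.92-fold, adjusted p = 0.0303), or 2.36 without knockout 2. *Mmp9*, gelatinase B, a product of neutrophils and macrophages as well as other cells, had 1.64, 0.588 and 0.6 CPM against 1.47, 6.27 and 1.07. Only knockout 2 exceeded all controls, and the difference was not called (1.63 ± 0.79, adjusted p = 0.174, or 0.42 without knockout 2). Of the collagenases only *Mmp13* was tested, with 2.04, 1.53 and 1.20 CPM in controls and 1.47, 2.66 and 1.46 in knockouts. Its groups overlapped (0.23 ± 0.40, adjusted p = 0.695).

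All 3 membrane-type MMPs tested rose. *Mmp14*, the collagen-cutting protease of the cell surface that also activates *Mmp2*, had 17.9, 12.2 and 9.19 CPM in the controls and 50.3, 142 and 98.5 in the knockouts. Its rise was 2.89 ± 0.43 (7.40-fold, adjusted p = 0.0276), from 13.1 ± 4.4 to 97.1 ± 46.1 (SD, n = 3 each). *Mmp15* had 8.91, 6.05 and 7.32 CPM against 23.3, 44.9 and 39.5 and rose by 2.27 ± 0.29 (4.82-fold, adjusted p = 0.0271), the smallest SE of these. *Mmp17*, which is held to the membrane by a lipid anchor, had 2.69, 2.76 and 2.22 CPM against 4.32, 16.0 and 17.6 and rose by 2.30 ± 0.53 (4.92-fold, adjusted p = 0.0362). For none of these did the groups overlap.

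Of the other MMPs, *Mmp23*, a membrane-anchored member, rose by 1.68 ± 0.32 (3.20-fold, adjusted p = 0.0304), from 7.76, 6.88 and 10.1 CPM to 15.6, 30.9 and 32.8. *Mmp19* had 1.99, 1.59 and 1.56 CPM in controls and 2.11, 10.4 and 3.37 in knockouts, with groups apart and no call (1.63 ± 0.61, adjusted p = 0.0993), and the value was 0.66 without knockout 2. *Mmp28*, epilysin, had 5.82, 3.29 and 2.46 CPM against 7.56, 7.08 and 7.05. Its groups were apart, and it was not called either (0.90 ± 0.36, adjusted p = 0.112).

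The 3 MMP genes with the largest log2 fold changes lie close together in the genome. On mouse chromosome 9 (build NCBIM37) 10 MMP genes lie within 427072 bases, at 7272514 to 7699585. Of these *Mmp12*, *Mmp3* and *Mmp7* rose, *Mmp13* was not called, and *Mmp1a* and *Mmp1b* had 0 counts in every library. *Mmp10* had 3 counts, all in knockout 1, *Mmp8* had 1, 0 and 1 counts against 1, 15 and 2, and *Mmp27* had 0 in the controls against 2, 15 and 9, at least 8.73-fold higher by the floor of 3 counts over the group. *Mmp12* spans 7344381 to 7369499, *Mmp3* 7445822 to 7455972 and *Mmp7* 7692086 to 7699585, all on the plus strand. Exons of *Mmp12* overlap those of *Mmp1b*, which had no count. Only uniquely mapped reads were counted, and the part of this in the 0 counts of *Mmp1a* and *Mmp1b* was not tested.

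**Figure D3:**
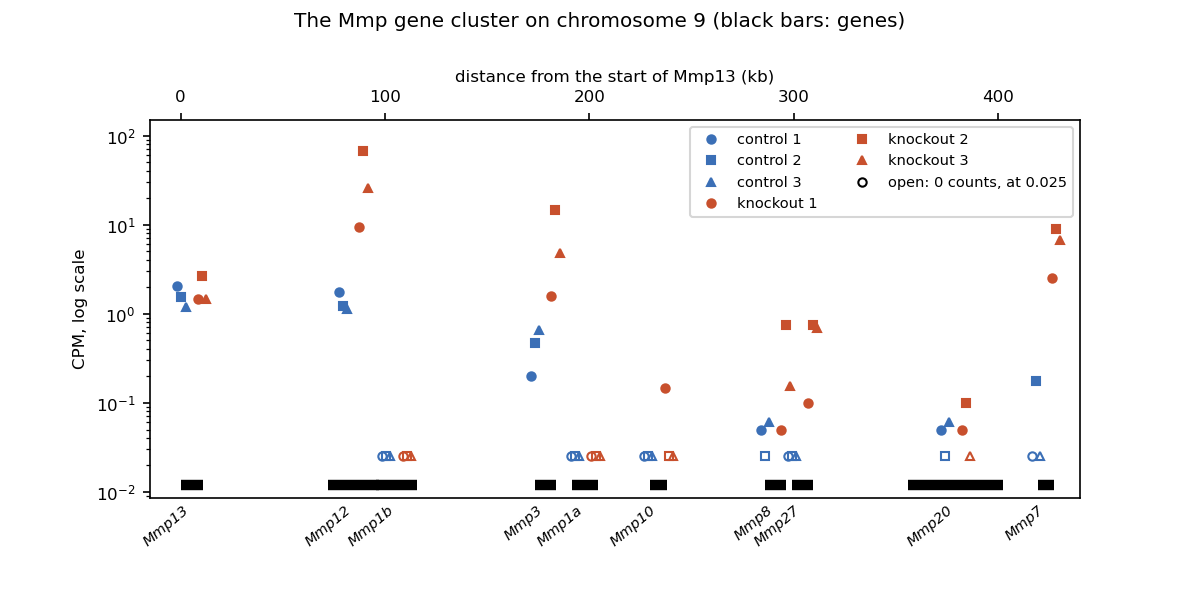
Levels of the genes of the chromosome 9 cluster in CPM (vertical log axis) against distance along the cluster, with controls in blue, TfR1KO;KspCre in orange, black bars for the genes and open symbols for libraries with 0 counts. At *Mmp12*, *Mmp3* and *Mmp7* all knockouts lie above all controls, and at *Mmp13* the groups mix.

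Stretches of promoter before the start were read from RefSeq (build GRCm38.p6) for some cluster genes and for *Timp1*, which rose most among the inhibitors. Only cluster genes that hold the letters marked below are shown, at a start site where they occur. Capitals mark the letters TGANTCA, the AP-1 motif, searched on both strands. Each stretch is 100 bases on the plus strand.
Mmp3 (chr9:7445722-7445821): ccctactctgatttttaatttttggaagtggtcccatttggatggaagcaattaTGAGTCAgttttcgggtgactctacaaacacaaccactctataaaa
Mmp7 (chr9:7691990-7692089): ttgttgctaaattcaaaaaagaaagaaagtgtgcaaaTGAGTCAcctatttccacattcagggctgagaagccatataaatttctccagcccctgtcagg
Mmp12 (chr9:7347274-7347373): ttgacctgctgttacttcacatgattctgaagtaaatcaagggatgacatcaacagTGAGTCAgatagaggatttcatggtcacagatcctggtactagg
Mmp13 (chr9:7272414-7272513): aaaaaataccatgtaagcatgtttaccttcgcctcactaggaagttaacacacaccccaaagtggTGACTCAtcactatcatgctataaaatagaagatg
Mmp10 (chr9:7502242-7502341): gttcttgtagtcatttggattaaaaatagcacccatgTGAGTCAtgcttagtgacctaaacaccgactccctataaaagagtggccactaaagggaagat
Mmp1a (chr9:7464041-7464140): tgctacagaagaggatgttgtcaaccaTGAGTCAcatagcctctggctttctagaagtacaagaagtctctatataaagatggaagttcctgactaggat
Timp1 (chrX:20870066-20870165): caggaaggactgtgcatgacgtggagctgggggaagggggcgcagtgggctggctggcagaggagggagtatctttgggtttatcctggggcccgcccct
The letters occurred in the windows of 8 of the 10 cluster genes, all but *Mmp8* and *Mmp27*, with the first base 35 to 95 bases before the start, and in 66.7% of their 12 windows of 300 bases, against 7.81% of all 32851 windows. The genes that hold them include *Mmp3*, *Mmp7* and *Mmp12*, which rose, and *Mmp13*, which was not called, so their presence did not separate the 4 tested genes of the cluster. *Mmp7* and *Mmp12* each have a further window without them. The window of *Timp1* has no exact match, but past the start it holds the near match tgagtaa. Near matches were not searched in any gene. Of the members, 49 had a window, 29 of them tested. Among the called members the letters were in 3 of 12 genes, and among those tested and not called in 3 of 17. The PEA3 letters AGGAAG were in 40% of the windows of called members and 47.4% of those not called, against 35.4% of all windows. A match of letters is a description and not a site of binding.

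Levels between genes were compared per length, as reads per kilobase per 1e6 reads (RPKM, from TMM-scaled CPM) over the transcript with the longest coding sequence. *Timp3* ranked first in the controls at 498 RPKM, ahead of *Adam9* at 28.9, *Timp2* at 27.3, *Adam15* at 27.2 and *Adam10* at 24.7. *Timp2* (21.0 to 35.7), *Adam9* (25.7 to 34.2), *Adam15* (26.0 to 27.8) and *Adam10* (21.9 to 27.0) overlapped among the control libraries, so their order was not resolved. In the knockouts *Timp3* stayed first at 317, followed by *Timp2* at 95.8. The mean of *Mmp14* was 5.04 in controls and 37.4 in knockouts, and that of *Mmp2* 3.20 and 25.5. In the knockouts *Mmp14* (19.4 to 54.8) overlapped *Adam10* (29.2 to 44.6) and *Adamts1* (31.9 to 40.6), and *Mmp2* (11.8 to 43.2) overlapped *Timp1* (10.1 to 41.7) and *Adam9* (24.2 to 32.6), so their order was not resolved either.

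Summed over each family, MMPs stood at 34.3, 22.4 and 22.9 RPKM in the controls and 69.7, 200 and 128 in the knockouts. TIMPs stood at 417, 593 and 571 against 375, 469 and 476, with overlapping groups. The sum of TIMPs over the sum of MMPs was 12.1, 26.4 and 24.9 in the controls and 5.38, 2.34 and 3.73 in the knockouts, without overlap. Within the TIMP sum, *Timp3* held 91.1%, 95.6% and 96.1% in the controls and 84.8%, 60.9% and 72.8% in the knockouts, while *Timp2* held 8.58%, 4.27% and 3.68% against 12.5%, 30.0% and 21.0%. Within the MMP sum, the share of *Mmp14* was 18.8% ± 2.96 in controls and 28.3% ± 1.22 in knockouts (SD, n = 3 each), and that of *Mmp11* was 23.3% ± 2.63 and 10.7% ± 3.52. ADAMs summed to 105 ± 6.35 RPKM against 142 ± 23.2, and ADAMTSs to 44.0 ± 5.76 against 98.4 ± 23.5.

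**Figure D4:**
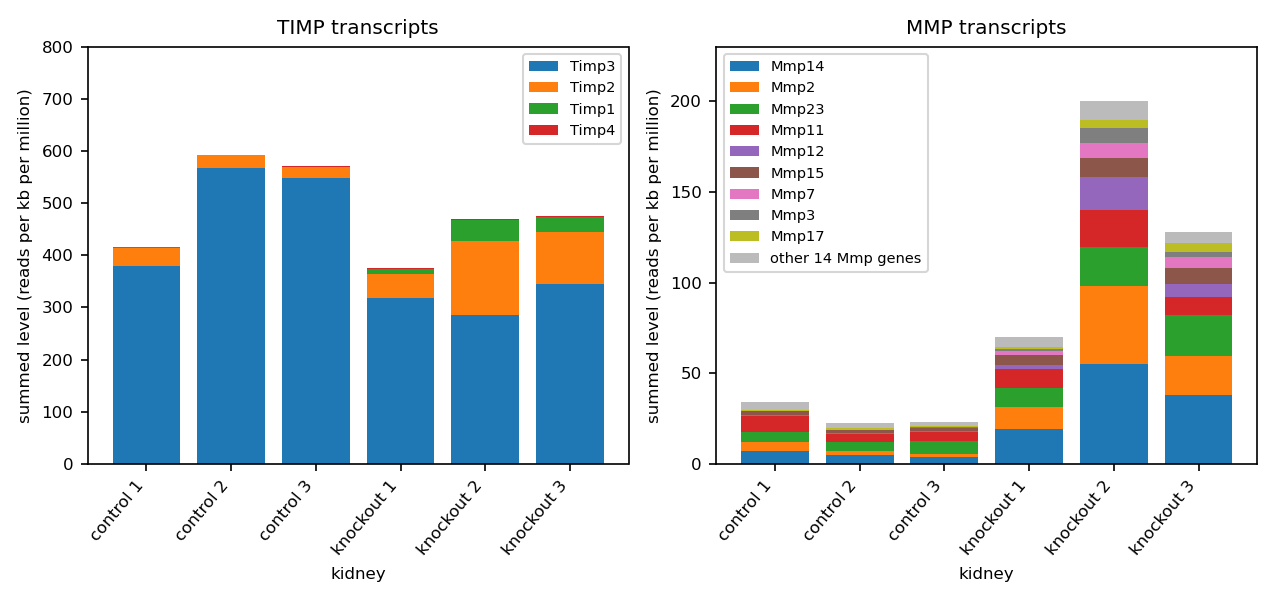
Stacked level per length in RPKM of the TIMP genes (left) and the MMP genes (right) in each kidney, from 0. The TIMP bars are mostly *Timp3* in every kidney, and the MMP bars of the 3 knockouts (69.7, 200 and 128) all exceed those of the controls.

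ADAMTS proteases rose in 4 of 15 genes tested, against 10.6% of all genes called higher, and with so few genes no difference from that share is read. *Adamts1*, which cuts aggrecan and versican and without which mice develop malformed kidneys, had 73.9, 70.5 and 37.2 CPM in the controls and 156, 198 and 195 in the knockouts. It rose by 1.60 ± 0.28 (3.02-fold, adjusted p = 0.0286). *Adamts2*, which removes the N-propeptide of fibrillar procollagens, had 11.6, 5.76 and 6.00 CPM against 23.0, 110 and 40.6 and rose by 2.89 ± 0.62 (7.40-fold, adjusted p = 0.0328), or 2.02 without knockout 2. *Adamts10*, which is tied to fibrillin microfibrils, rose by 1.20 ± 0.28 (2.29-fold, adjusted p = 0.0365) from 35.3, 29.0 and 32.4 CPM to 45.8, 99.1 and 77.0. *Adamts16* rose by 1.85 ± 0.44 (3.60-fold, adjusted p = 0.0389) from 3.23, 2.18 and 4.50 CPM to 15.8, 13.8 and 6.05. It was the only called gene with knockout 1 the highest.

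By role, the other procollagen N-propeptidases were not called, nor were 5 of the 6 aggrecanases and versicanases tested. *Adamts4* had 1.84, 0.705 and 0.840 CPM in controls and 5.10, 8.83 and 1.92 in knockouts, with groups apart (2.22 ± 0.64, adjusted p = 0.0562). *Adamts5* had 36.4, 29.9 and 26.4 CPM in controls and 30.5, 67.8 and 96.0 in knockouts (1.07 ± 0.39, adjusted p = 0.0931), and its groups overlapped. *Adamts12*, which with *Adamts7* cuts cartilage oligomeric matrix protein, had groups apart and 1.49 ± 0.54 (adjusted p = 0.0911). *Adamts13*, which cuts von Willebrand factor, had 36.0, 19.9 and 46.5 CPM in controls and 33.0, 32.4 and 47.8 in knockouts, and did not differ detectably (0.14 ± 0.32, adjusted p = 0.768).

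ADAM sheddases had 2 called of 9 tested, their median difference being 1.64 on the log2 scale, and of the 3 ADAMs without protease activity 1 was called. Over all genes 17.2% were called, and with so few ADAMs no difference from that share is read. *Adam8*, a sheddase of leukocytes and other cells, had 1.54, 1.12 and 1.38 CPM in the controls and 6.53, 20.0 and 10.6 in the knockouts. It rose by 3.19 ± 0.47 (9.12-fold, adjusted p = 0.0271). *Adam12* had 9.25, 7.46 and 4.08 CPM against 16.9, 42.4 and 19.3 and rose by 1.92 ± 0.45 (3.77-fold, adjusted p = 0.0379). *Adam23*, which binds integrins rather than cutting proteins, had 0.597, 0.940 and 0.901 CPM against 2.01, 5.97 and 3.37 and rose by 2.22 ± 0.49 (4.65-fold, adjusted p = 0.0339).

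The more abundant sheddases were not called. *Adam10*, which cuts Notch receptors and E-cadherin, had 116, 124 and 100.5 CPM in controls and 134, 205 and 150.5 in knockouts. Its groups were apart, but it was not called (0.52 ± 0.20, adjusted p = 0.0994). *Adam17*, which releases TNF, had 57.2, 53.2 and 47.7 CPM against 66.7, 88.5 and 59.5 (0.44 ± 0.18, adjusted p = 0.119), and its exons overlap *Iah1* on the opposite strand, which fell by 1.29. *Adam9* had 102, 136 and 107 CPM in controls and 96.4, 130 and 112 in knockouts, and the log2 difference was −0.03 ± 0.18 (adjusted p = 0.913). *Adam15* was not called either (0.52 ± 0.23, adjusted p = 0.145), nor were *Adam19* (1.64 ± 0.47, adjusted p = 0.0551, or 0.99 without knockout 2), *Adam28* (1.81 ± 1.04, adjusted p = 0.236), which rested on knockout 2 at 14.3 CPM against 2.31 and 0.460, and *Adam33* (1.64 ± 0.67, adjusted p = 0.119). *Adam1a* and *Adam1b*, both known from sperm formation, were the other tested genes with all knockouts below all controls. Exons of *Adam1a* overlap *Mapkapk5* on the same strand, at 29.71 to 43.52 CPM with a log2 fold change of −0.24. The part of this overlap in the counts was not tested. *Adam1a* had 13.6, 10.5 and 17 CPM in controls and 9.72, 5.92 and 8.20 in knockouts and was not called (−0.79 ± 0.28, adjusted p = 0.0888), nor was *Adam1b* (−1.16 ± 0.47, adjusted p = 0.12).

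Several members below the count rule had counts mainly in the knockouts. *Adamts18* had 1, 0 and 0 counts in the controls against 2, 41 and 22, and *Adamts19* had 0 in every control against 0, 2 and 40. *Adamts17* had 8, 4 and 4 against 56, 54 and 5. In each of these at least 1 knockout stayed near the controls, and none was tested on all 6 libraries with the filter. *Adamts18* was called higher with no filter and without knockout 1. *Adamts20*, which passed the rule but was not tested, went the other way, with 15, 10 and 13 counts in controls and 6, 3 and 0 in knockouts.

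The calls depended on every library except knockout 1. In edgeR's test, leaving out control 1, 2 or 3 or knockout 3 left 0 members called. At an unadjusted p under 0.05 were 30 of 54, 27 of 56, 23 of 54 and 31 of 53 members tested. Of all genes tested, 4808 of 15518, 4270 of 15565, 4823 of 15624 and 4456 of 15439 were under it. Over all genes these fits called 0, 0, 0 and 2, so the loss was not particular to these members. Leaving out knockout 2 left only *Timp1*, with 0.474% of all genes called, while leaving out knockout 1 gave 28 calls, with 34.4% of all genes called. Of the 28, 26 were higher and 2 lower (*Adam7* and *Adamts20*, which low counts kept out of the test on all 6 libraries). Without control 2, the library with a different pattern of sex-linked genes, the 17 genes kept log2 fold changes from 1.12 to 9.76, adjusted p-values from 0.118 to 0.129 and unadjusted p-values from 0.000415 to 0.0169. The highest of these, that of *Mmp7*, was fitted against controls at 0 counts and is no bound. Without control 2 the log2 fold change was 5.40 for *Timp1*, 4.54 for *Mmp12*, 4.02 for *Mmp3*, 2.83 for *Mmp14* and 1.71 for *Adamts1*. Without knockout 2, the library highest in most called members, it was 5.20 for *Timp1*, 3.68 for *Mmp12*, 2.82 for *Mmp3*, 2.36 for *Mmp2* and 2.02 for *Adamts2*, and without control 1 it was 5.96 for *Mmp7*.

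**Figure D5:**
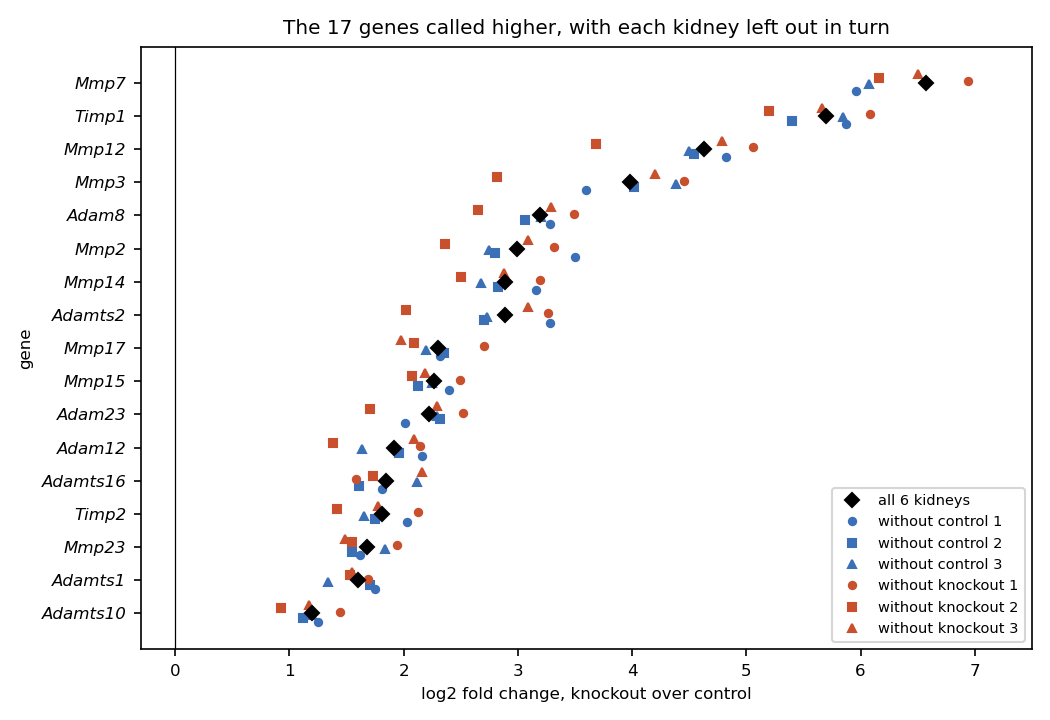
Log2 fold change of each called gene (horizontal axis) in all 6 libraries (black) and with each library left out in turn (blue for a control, orange for a knockout). Every value drawn is above 0, and no value is drawn for *Mmp7* without control 2, where the controls were at 0 counts.

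Genes that act with these proteases moved in part. Over all genes tested 10.6% were called higher, and no gene stayed called when any 1 control was left out. In the plasminogen pathway, which activates several MMP precursors, *Serpine2*, a serine protease inhibitor, rose by 2.14 ± 0.27 (adjusted p = 0.0271) and *Plaur*, the urokinase receptor, by 1.09 ± 0.24 (adjusted p = 0.0349). *Plau*, urokinase itself, was not called, with groups overlapping and a log2 fold change of −1.04 (adjusted p = 0.14). Of 10 other activators and inhibitors 4 rose, among them *Thbs2* by 3.27 ± 0.61 (adjusted p = 0.0300), while *Reck*, a membrane inhibitor of MMPs, was not called. Of 13 related metalloproteases 5 rose, with *Bmp1*, the procollagen C-proteinase, at 1.78 ± 0.30 (adjusted p = 0.0278). *Pappa2*, which cuts IGF-binding proteins, had 1.69, 0.588 and 1.86 CPM in controls and 9.33, 37.2 and 300.2 in knockouts, a rise of 6.37 ± 1.42 (adjusted p = 0.0345) with knockout 3 far above the others. *Mep1a* and *Mep1b*, subunits of the brush border protease meprin, had all knockouts below all controls, with *Mep1b* at −3.09 and no call (adjusted p = 0.0681).

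Among the substrates, 7 of 13 fibrillar collagens and interstitial matrix genes rose and the list's median was 2.08 on the log2 scale, led by *Col1a1* at 3.52 ± 0.61 (adjusted p = 0.0286) and *Col3a1* at 3.36 ± 0.63 (adjusted p = 0.0303). Basement membrane substrates had 3 of 10 higher and a median of 0.93, with *Col4a1* at 1.01 ± 0.26 (adjusted p = 0.0451), and *Col4a3* at −0.97 was not called. Among substrates of ADAM10 and ADAM17, *Tnfrsf1b* rose by 2.51 ± 0.47 (adjusted p = 0.0303) and *Notch1* by 1.20 ± 0.19 (adjusted p = 0.0277). The median over all genes tested was 0.02, and 10.6% of them were called higher.

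Macrophage markers rose, and other cell type markers varied in different ways across the knockouts. Of 8 macrophage markers tested, 7 rose and *Csf1r* did not pass the test, and their summed level was 183, 171 and 172 CPM in the controls and 407, 1234 and 525 in the knockouts. Knockout 2 was highest and knockout 1 lowest in this sum, as knockout 2 was in 14 of the 17 called members, whatever their role. Fibroblast and myofibroblast markers had 2 of 7 higher and summed to 409, 301 and 258 CPM against 505, 2185 and 2264. The part of either in the results was not tested. Of 8 neutrophil markers 4 were tested and 0 called, with *Ly6g*, *Mpo*, *Elane* and *Camp* at or near 0 in all libraries. The 5 proximal tubule markers all fell, by a median of 2.30 on the log2 scale, and of the red cell markers *Alas2* had 170 to 325 counts in controls and 151 to 202 in knockouts and was not called, while *Hba-a1* and *Hbb-b1* are listed at 0 in every library. Of 2 thick ascending limb, 1 distal convoluted tubule, 2 collecting duct and 2 podocyte markers, 0 were called. Their median log2 fold changes were −1.50, −1.08, −0.23 and 0.19. *Umod*, of the thick ascending limb, had 4599, 5328 and 1999 CPM in controls and 3444, 423 and 259 in knockouts. For this gene and *Slc12a1* knockouts 2 and 3 lay below all controls, and knockout 1 lay within the control range. Over all genes 10.6% were called higher and 6.64% lower.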

How the data were processed

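Poly-A RNA of whole kidney from 3 control and 3 TfR1KO;KspCre mice was sequenced as single-end reads after TruSeq library preparation. Per the submitters' notes, the authors used CASAVA 1.8.2, Trimmomatic, TopHat2 2.0.11 and HTSeq against build mm9, and deposited raw counts of uniquely mapped reads per gene. The annotation and the strand setting are not given in the sources used here. The libraries are separate mice per the series' design, which calls them biological replicates. Members and gene lists were chosen with earlier results of these data known.

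From the deposited counts, edgeR 4.0.16 (R 4.3.3) was run on all 6 libraries with TMM scaling, filterByExpr (minimum count 10, minimum total 15), the quasi-likelihood test (glmQLFit, glmQLFTest) and Benjamini-Hochberg adjustment over the 15171 genes tested, calling genes at an adjusted p under 0.05. The steps were tested on simulated data with the same spread for every gene. That does not measure how the test behaves at the spread seen here. Errors are SE for fold changes and SD for levels. RPKM uses the GENCODE M1 transcript with the longest coding sequence, and positions (NCBIM37) matched 78 of 79 members. The genes named were all TIMPs and MMPs that passed the count rule, then the ADAMs and ADAMTSs that were called. To these were added the 5 largest log2 fold changes of those not called and the 3 highest per family by control level. Of the other lists only some of the called genes were named, and *Col4a3* was named outside these rules. *Adam17*, *Adam1a*, *Adam1b*, *Adamts5*, *Adamts7*, *Mep1a*, *Mep1b*, *Plau*, *Reck* and the members below the rule were named after their values were seen. Alternatives were other scalings, filters, thresholds, limma 3.58.1 (voom), DESeq2 1.42.0 (the study's tool), a replicate block, an *Xist* to Y-linked covariate and leaving out each library. Total counts of 11501053 to 21001341 set the precision of low genes such as *Mmp7*, whose control values rest on 3 counts. Some genes of the plasminogen list and of the list of ADAM10 and ADAM17 substrates are not reported here, so no counts are given for those lists.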

Additional observations from a re-analysis of the deposited data

How the results depend on the processing

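With 3 libraries per group, calls moved with the set of libraries and the tool, and the causes were not tested. The 17 calls, all higher, became 17 with DESeq2 size factors, 18 with upper quartile scaling, 21 with library size alone (which moved the median of all genes from 0.02 to 0.29), 18 with no filter and 14 with at least 10 counts in every library, where *Mmp3*, *Mmp7* and *Timp1* were not tested. A 2-fold minimum left 17. An adjusted p under 0.10 gave 26, with 25 higher and 1 lower. limma-voom called 11, without *Adam12*, *Adam23*, *Adamts2*, *Mmp12*, *Mmp17* and *Mmp3*, and DESeq2's Wald test called 26, with 24 higher and 2 lower (*Timp3* and *Adam1a*). The edgeR fit with the *Xist* to Y-linked covariate called 0, higher or lower, with 21 members at an unadjusted p under 0.05. Leaving out 1 library gave 0 to 28 calls, 0 to 26 higher and 0 to 2 lower. The covariate fit and the fits without control 1, control 2, control 3 or knockout 3 thus ended every member's call, and that without knockout 2 left 1, while the fit without knockout 1 gave 28. Over all genes the share called moved alike: 17.2% with all libraries, 0% with the covariate, with the block or without any 1 control, 0.013% without knockout 3, 0.474% without knockout 2, 34.4% without knockout 1, 13.4% with voom and 32.2% with DESeq2's Wald test. Over the fits without 1 control the adjusted p of the 17 genes ran from 0.0805 to 0.129.

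The replicate numbers were not taken to pair the samples. Same-numbered libraries had correlations of −0.1286, 0.0116 and 0.2149 in their deviations from the group means, and so few values cannot exclude a pairing. An edgeR fit with the number as a replicate block called 0 members, higher or lower, with 24 at an unadjusted p under 0.05.

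Of 556 alternative values for the 33 named members, 405 kept direction and side of the threshold, 124 lost the call, 15 gained one and 12 changed sign, all 12 in genes that were not called. *Adam28* was −0.19 and *Mmp13* −0.12 without knockout 2, in ranges over the fits leaving out 1 library that reached 2.35 and 0.43. *Adam9* was 0.0504 with upper quartile scaling, 0.25 with library size alone, 0.0995 with the covariate, 0.0975 without control 2 and 0.0607 without knockout 1, and as low as −0.15 without knockout 2. *Adamts13* was −0.0892 with the covariate, −0.14 without control 2 and −0.0625 without knockout 3, and up to 0.43 without control 3. *Timp4* was −0.0425 with voom and −0.61 without knockout 3, and up to 1.12 without knockout 1. Genes with few counts, such as *Adam32* in all libraries and *Mmp7* in the controls, are limited by depth.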
